A study of Mus musculus with 116 samples.

Results

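The junctions described here joined a Cas9-made DNA double-strand break in c-Myc (the Myc gene) to any other chromosome, apart from the Igk antigen receptor locus. Each row of the deposited JoinT-seq lists is 1 sequenced join, and the rule kept every row outside chromosome 15, which carries the break, and outside a stretch of 3.26 Mb of chromosome 6 that holds Igk. The rule took 33644 of 891855 rows (3.77%) over 54 libraries. After identical joins within a library were counted once, 33626 distinct translocations were left, so nearly every row was a different join. Coordinates are those of mm10.

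All libraries came from v-Abl pro-B cells, mouse B-lineage progenitors transformed with the v-Abl oncogene, and all carried an Emu-Bcl2 transgene, a survival gene driven by the immunoglobulin heavy chain enhancer. Cells received Cas9 with a c-Myc guide RNA by nucleofection. For 48 libraries G1 arrest came from 96 h in 3 µM STI-571, which blocks the v-Abl kinase, and for 6 the cells were left cycling. There were 18 groups of 3 libraries, and each clone letter is treated as a lineage. Cells with the transgene alone (WT) were clones A (measured in 2 sets) and B, and Ku70-/- cells were clones A1 and B1. Lig4-/- cells were clones A1 (3 sets), B1 and C. Doubly deficient Lig4-/- Ku70-/- cells were clones A1_1 and C1, and the same cells with Ku70 put back (+Ku70) formed another pair of groups. Lig4-/- cells with Lig4 put back (+Lig4) were clones A1 and C, and cycling cells were WT clone A and Lig4-/- clone A1. The genotypes rest on the labels, since no expression values of these cells were analysed here. Each clone is 1 line, and nothing in the labels says that replicates were separate cultures, so p-values measure the spread between these libraries, which may be technical.

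Classical end joining holds broken DNA ends with the Ku70/Ku80 heterodimer and seals them with DNA ligase IV. Without these factors cells still join ends by alternative routes, which often trim the ends and pair short stretches of identical sequence, called microhomology, before sealing. When 2 breaks on different chromosomes are joined to each other the product is a translocation, and Myc is a recurrent partner of such events in B-cell tumours. The method reads from a primer beside the Myc break (the bait side) into whatever sequence (the prey) the end was joined to, so each read shows where the bait end stopped, where the prey began and what lies between them.

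The bait side most often ended at position 61987303 of chromosome 15 and the prey of rejoined breaks began at 61987304, inside Myc (61985341 to 61990361) and 1962 bp from its start. The guide sequence is not given in the sources used here; 1 protospacer with an NGG motif in the consensus of the reads is cut by Cas9 exactly between these positions. It is shown with the motif in capitals, followed by the bases on either side of the break, because trimmed bait ends and copied bases below come from them. The part in capitals in the last line is the CA repeat that begins 35 bases beyond the break.
protospacer at the break: gacgagcgtcactgatagtaGGG
left of the break, chr15:61987234-61987303: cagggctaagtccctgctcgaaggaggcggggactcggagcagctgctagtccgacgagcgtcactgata
right of the break, chr15:61987304-61987383: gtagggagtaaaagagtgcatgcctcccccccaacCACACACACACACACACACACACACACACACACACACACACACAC

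Single reads show the 4 kinds of join that the results turn on. The first is a WT join in which the whole bait end was kept and a few inserted bases, in capitals, stand before chromosome 1 sequence in Khdrbs2. The next 3 are joins over long microhomology, in capitals, to chromosome 17, to Gpr55 and to Kiss1r. They were chosen because the identical join was present in 10, 6 and 6 libraries.
direct join, WT: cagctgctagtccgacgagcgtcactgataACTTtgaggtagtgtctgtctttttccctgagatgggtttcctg
long microhomology, chromosome 17 at 88145499: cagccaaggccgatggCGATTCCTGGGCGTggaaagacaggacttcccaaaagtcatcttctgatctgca
long microhomology, Gpr55: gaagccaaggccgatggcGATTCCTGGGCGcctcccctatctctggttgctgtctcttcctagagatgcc
long microhomology, Kiss1r: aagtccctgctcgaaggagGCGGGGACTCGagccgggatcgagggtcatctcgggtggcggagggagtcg

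The third kind of join entered a CA repeat elsewhere in the genome. In the first example, from Ku70-/- cells, capitals mark the overlap, and in the other two they mark bases inserted between bait and prey. Those inserted bases are an exact stretch of the Myc sequence right of the break, where it leads into its own CA repeat. The fourth kind joined the neighbourhood of a gene segment in another antigen receptor locus, here 79 bp from Iglv1 and 100 bp from Trgv2, with no overlap and no insertion.
CA tract, Ku70-/-: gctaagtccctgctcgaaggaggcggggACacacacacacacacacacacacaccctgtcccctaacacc
CA tract, Lig4-/- Ku70-/-: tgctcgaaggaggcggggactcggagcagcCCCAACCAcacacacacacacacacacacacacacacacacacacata
CA tract, Lig4-/- cycling: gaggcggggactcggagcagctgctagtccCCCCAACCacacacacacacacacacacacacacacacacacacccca
Igl beside Iglv1: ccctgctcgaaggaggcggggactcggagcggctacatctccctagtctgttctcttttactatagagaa
Tcrg beside Trgv2: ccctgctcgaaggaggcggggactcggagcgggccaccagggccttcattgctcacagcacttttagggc

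Libraries held 74 to 55809 junction rows of all kinds, of which 18 to 3553 were translocations. The G1 libraries of Lig4-/- and of +Ku70 clone A1_1 were the small ones, and shares in them are coarse. The exact 95% binomial interval of the translocation share was 23.3 points wide in the least precise library and 0.213 points wide in the most precise. These intervals cover counting error only, since copies of 1 molecule cannot be recognised without molecular identifiers. The read names placed the libraries in 16 sequencing runs; lineage B was read in 1 Nextseq run and all others on Miseq.

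Translocations were counted against the raw reads to which the authors had normalised each set. G1 WT clone A gave 149, 150 and 94.6 translocation rows per 100000 raw reads and clone B gave 180, 162 and 343. Lig4-/- clone A1 gave 23.5, 19.4 and 19.4 and clone B1 gave 13.3, 14.2 and 15.7, all below every WT library. Ku70-/- clone A1 gave 196, 311 and 248 and clone B1 gave 476, 218 and 592. The Ku70-/- values lay above WT in lineage A and overlapped WT in lineage B.

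On the log2 scale (rows plus 0.5) translocations fell by 3.26 in Lig4-/- against WT, a 9.60-fold lower abundance (exact permutation p = 0.005, adjusted p = 0.0137). This p is the smallest that 400 relabellings within 2 lineages can give, and p-values are adjusted over 63 planned tests. Ku70-/- exceeded Lig4-/- 18.0-fold (log2 difference 4.17, exact permutation p = 0.005, adjusted p = 0.0137). Ku70-/- exceeded WT 1.88-fold (log2 difference 0.91, exact permutation p = 0.02, adjusted p = 0.0467). That last call ended when joins into CA repeats were left out (log2 difference 0.35, exact permutation p = 0.32). It also ended when any of Ku70-/- clone B1 replicates 1 or 3 or WT clone B replicates 1 or 2 was left out (log2 differences 0.76 to 0.85, exact permutation p between 0.05 and 0.06). Within the run that held lineage B the 9 Ku70-/- minus WT pairs had a mean log2 difference of 0.88 and ranged from -0.65 to 1.87. In lineage A the compared libraries shared no run. A WT clone A library of the other G1 set, read in 1 run with Ku70-/- clone A1 replicate 1, gave 77.9 rows against 196 per 100000 raw reads, and CA-repeat joins were 1.65% against 46.6% of their translocations.

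Cells that lacked both Ku70 and Lig4 had more translocations than Lig4-/- cells, and the number fell when Ku70 was put back into them. In Lig4-/- cells, which still had Ku70, the number rose when Lig4 was put back. Lig4-/- Ku70-/- clone A1_1 gave 237, 184 and 768 rows per 100000 raw reads and clone C1 gave 843, 805 and 809. Their Lig4-/- counterparts gave 15.4, 19.3 and 29.2 (clone A1) and 25.6, 17.2 and 14.6 (clone C), so no doubly deficient library came near them. The doubly deficient cells exceeded Lig4-/- 26.0-fold (log2 difference 4.70, exact permutation p = 0.005, adjusted p = 0.0137). With Ku70 put back the values were 14.4, 8.92 and 49.5 in A1_1 and 72.8, 68.4 and 48.0 in C1, which is 15.0-fold lower (log2 difference -3.91, exact permutation p = 0.005, adjusted p = 0.0137). With Lig4 put back they were 183, 270 and 264 in A1 and 283, 402 and 444 in C. That was 14.9-fold above Lig4-/- (log2 difference 3.90, exact permutation p = 0.005, adjusted p = 0.0137), and no run held both +Lig4 and the Lig4-/- libraries it was set against. The clone A1 +Lig4 libraries did share runs with the first Lig4-/- set of that clone, which gave 23.5, 19.4 and 19.4. Leaving out any 1 library kept these 3 differences past the threshold.

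**Figure D1:**
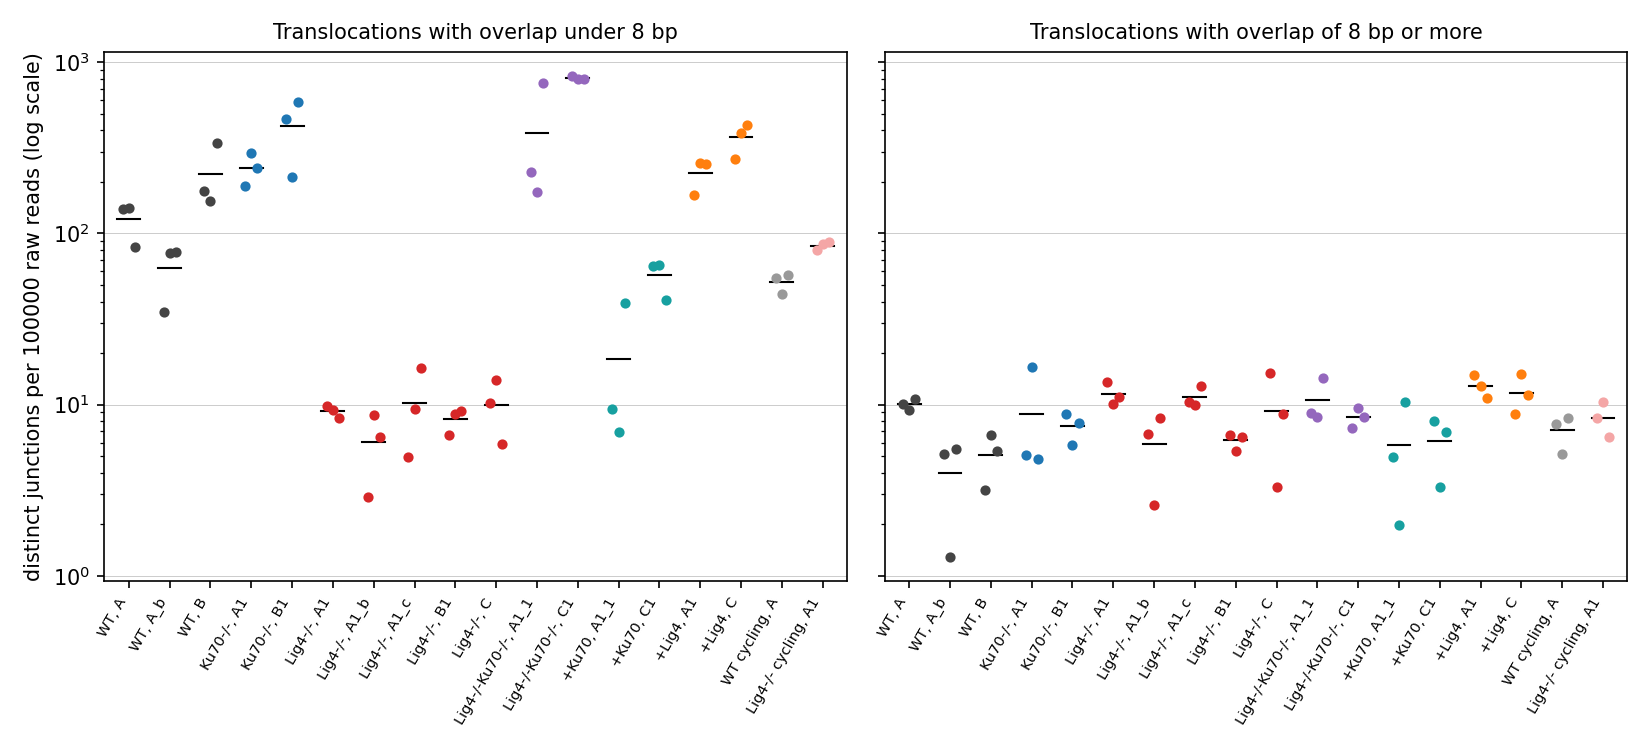
Distinct translocations per 100000 raw reads (log axis) in each of the 54 libraries, with bars at group means: joins with under 8 bp of microhomology on the left, with 8 bp or more on the right. Joins under 8 bp span from below 10 to above 800, while joins of 8 bp or more lie between 1.29 and 16.7 in every group.

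Cycling cells gave 62.4, 49.2 and 65.3 rows per 100000 raw reads in WT and 88.2, 97.5 and 95 in Lig4-/- clone A1. The G1 libraries of the same sets gave 39.9, 77.9 and 83.7 in WT and 9.66, 11.3 and 14.8 in Lig4-/-. The cycling Lig4-/- libraries lay 7.88-fold above their G1 counterparts (log2 difference 2.98) and the WT libraries overlapped theirs (log2 difference -0.12). With 3 libraries against 3 the exact permutation p cannot go below 0.1, which is the p of the Lig4-/- difference, and that of WT was 0.7. No run held both arms of either comparison, and for WT the effect of cycling and that of the run cannot be told apart. For Lig4-/- clone A1, 1 run held cycling replicate 3 together with replicates 1 and 2 of another G1 set. The cycling library gave 95 translocation rows and 63.4 CA-repeat joins per 100000 raw reads, and the G1 libraries gave 15.4 and 19.3 rows with 2.48 and 4.46 such joins, the cycling library from a set reduced to 310675 raw reads and the others from one reduced to 201858.

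As a share of all junction rows, translocations made up 0.780% to 3.85% in the WT G1 libraries, 3.35% to 9.74% in Ku70-/-, and 9.49% to 73.4% in Lig4-/- G1 cells, where rejoined breaks were few. The share rose by 59.5 points from WT to Lig4-/- (exact permutation p = 0.005, adjusted p = 0.0137). It rose by 3.25 points from WT to Ku70-/- with the same p. When every list was reduced to distinct junctions, that difference was -13.8 points (exact permutation p = 0.02, not adjusted). The share fell by 28.1 points from Lig4-/- to Lig4-/- Ku70-/- (adjusted p = 0.0252) and by 31.1 points from Lig4-/- to +Lig4 (adjusted p = 0.0137) by exact permutation tests. Over distinct junctions these differences were -14.2 and -9.98 points and neither passed (p = 0.19 and p = 0.36, exact permutation tests). The gain of 10.7 points from the doubly deficient cells to +Ku70 (exact permutation p = 0.005, adjusted p = 0.0137) became a difference of -1.33 points over distinct junctions (exact permutation p = 0.765). It also lost its call without any of the 3 replicates of Lig4-/- Ku70-/- clone A1_1 (10.1 to 11.7 points, exact permutation p between 0.05 and 0.085). The denominator of the share holds every copy of a rejoined break, and the abundances above do not use it.

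The structure of the joint differed most in Lig4-/- G1 cells. Joins with a microhomology of at least 8 bp made up 58.1%, 51.9% and 57.1% of distinct translocations in clone A1 and 50.0%, 37.6% and 41.5% in clone B1, against 6.76%, 6.22% and 11.5% in WT clone A and 1.76%, 4.13% and 1.55% in WT clone B. The share rose by 44.1 points (exact permutation p = 0.005, adjusted p = 0.0137) and no Lig4-/- library overlapped a WT library of its lineage. It fell by 48.2 points from Lig4-/- to Lig4-/- Ku70-/- and by 46.0 points from Lig4-/- to +Lig4 (each exact permutation p = 0.005, adjusted p = 0.0137). It rose by 15.8 points when Ku70 was returned to the doubly deficient cells, with the same p-values.

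The number of such joins varied less than that of joins with less overlap. Per 100000 raw reads, distinct joins of at least 8 bp ran from 1.29 to 16.7 over all 54 libraries with a median of 8.37. Pooled by genotype they were 6.32 in WT, 8.03 in Ku70-/-, 8.34 in Lig4-/-, 9.33 in Lig4-/- Ku70-/-, 5.96 in +Ku70, 12.2 in +Lig4, 7.08 in cycling WT and 8.37 in cycling Lig4-/-. Joins with less overlap ran from 8.55 in Lig4-/- through 154 in WT and 350 in Ku70-/- to 630 in Lig4-/- Ku70-/-, all per 100000 raw reads. None of the 9 comparisons of the abundance of long-overlap joins passed (exact permutation p 0.07 to 0.98, adjusted p 0.135 or higher over 54 tests added after the data were seen). The log2 difference was 0.27 for Lig4-/- minus WT, 0.08 for Ku70-/- minus WT, 0.39 for +Lig4 minus Lig4-/-, 1.01 for cycling minus G1 WT and -0.81 for +Ku70 minus Lig4-/- Ku70-/-. Without 1 library some fell under an unadjusted p of 0.05 by the exact permutation test. The +Ku70 difference was -1.08 (p = 0.01) without A1_1 replicate 3 and -0.93 (p = 0.035) without C1 replicate 1 of +Ku70, by the same exact test. The +Lig4 difference was 0.64 without Lig4-/- clone C replicate 1, and the Lig4-/- minus WT difference 0.38 without WT clone B replicate 2 (each exact permutation p = 0.035). A p that misses the threshold does not show that the groups are alike; the measured spread is 12.9-fold between the lowest and the highest library.

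Identical long-overlap joins came back in separate libraries. Of 1165 different joins of at least 8 bp, 184 (15.8%) were found in 2 or more libraries, against 71 of 31926 (0.222%) of the joins under 8 bp. The join at chromosome 17, 88145499, was found in 10 libraries of 8 groups and 6 sequencing runs, among them WT, Ku70-/-, Lig4-/-, +Lig4 and cycling WT. It pairs 14 bp that lie 73 bp before the break, and its nearest gene, Gm4832, is 14316 bp away. Joins to Gpr55, a lipid-sensing G protein-coupled receptor (12 bp), and Kiss1r, the kisspeptin receptor (11 bp), were each found in 6 libraries. The joins to Ccdc136 (19 bp) and Ephb1, an ephrin receptor (13 bp), were also in 6. The overlap of long joins had a median of 10 bp and reached 28 bp, and their bait ends lay a median of 33 bp before the break against 17 bp for the rest. The lists do not tell a join made in cells from one made during library preparation, and which applies was not tested.

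At the threshold of 2 bp, microhomology marked 16.2% to 25.1% of translocations in the WT G1 libraries, 19.5% to 28.7% in Ku70-/- and 46.8% to 83.3% in Lig4-/-. From WT to Lig4-/- the share rose by 43.1 points (exact permutation p = 0.005, adjusted p = 0.0137), of which 15.3 points remained without joins of 8 bp or more (exact permutation p = 0.10). The difference of Ku70-/- from Lig4-/- was -40.6 points (adjusted p = 0.0137) and -10.3 points without the long joins (p = 0.125), both by exact permutation tests. From Lig4-/- the share fell by 46.9 points to Lig4-/- Ku70-/- and by 49.8 points to +Lig4, and it rose by 28.3 points from Lig4-/- Ku70-/- to +Ku70 (each exact permutation p = 0.005, adjusted p = 0.0137). These 3 kept their calls without the long joins, at -15.4, -20.1 and 20.6 points. Ku70-/- and WT differed by 2.51 points (exact permutation p = 0.155); the difference was 5.04 points without long joins (p = 0.015), 6.29 without CA-tract prey (p = 0.015) and -1.0 at a threshold of 3 bp (p = 0.455), again by exact permutation tests.

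Short insertions were most frequent in WT and +Lig4 joints. Insertions of 1 to 2 bp stood in 23.4% of all WT G1 translocations pooled and in 26.3% of +Lig4, against 4.65% in Ku70-/-, 2.21% in Lig4-/- and 4.31% in Lig4-/- Ku70-/-. Among joints with an insertion the pooled median length was 2 bp in WT and +Lig4, 7 bp in Ku70-/-, 8 bp in Lig4-/- Ku70-/- and in +Ku70, and 14 bp in Lig4-/-. In cycling cells it was 6.5 bp in WT and 6 bp in Lig4-/-. The share of translocations with any insertion was 56.9%, 56.5% and 53.1% in WT clone A and 36.9%, 25.3% and 41.5% in Ku70-/- clone A1. In lineage B it was 27.8%, 31.9% and 29.6% in WT and 22.2%, 19.5% and 19.7% in Ku70-/-. The share fell by 15.1 points from WT to Ku70-/- (exact permutation p = 0.005, adjusted p = 0.0137).

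Lig4-/- cells did not give 1 picture for insertions. In lineage A their share lay 41.7 points below WT and in lineage B 11.4 points above, and the lineages differed by -53.2 points (exact permutation p = 0.005, adjusted p = 0.049 over 49 interactions). Labels were permuted within each lineage, so this p is against no effect in either lineage. Prey that began in a run of 1 letter made up 36.2%, 44.7% and 42.6% of the Lig4-/- clone B1 translocations and 1.08% to 8.57% over the 3 sets of clone A1. As numbers these were 29, 38 and 40 joins in clone B1, beside 43, 42 and 41 in WT clone B of the same run. One-letter prey carried an insertion in 83.8% of 649 cases over all libraries; their part in the lineage difference was not tested. From Lig4-/- to +Lig4 insertions rose by 25.0 points (exact permutation p = 0.005, adjusted p = 0.0137), a gain of 4.20 points without joins of 8 bp or more (exact permutation p = 0.705). The rise of 12 points from Lig4-/- to Lig4-/- Ku70-/- (exact permutation p = 0.015, adjusted p = 0.0363) turned to -9.90 points without those joins (exact permutation p = 0.27) and was 2.95 points without CA-tract prey (exact permutation p = 0.305).

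**Figure D2:**
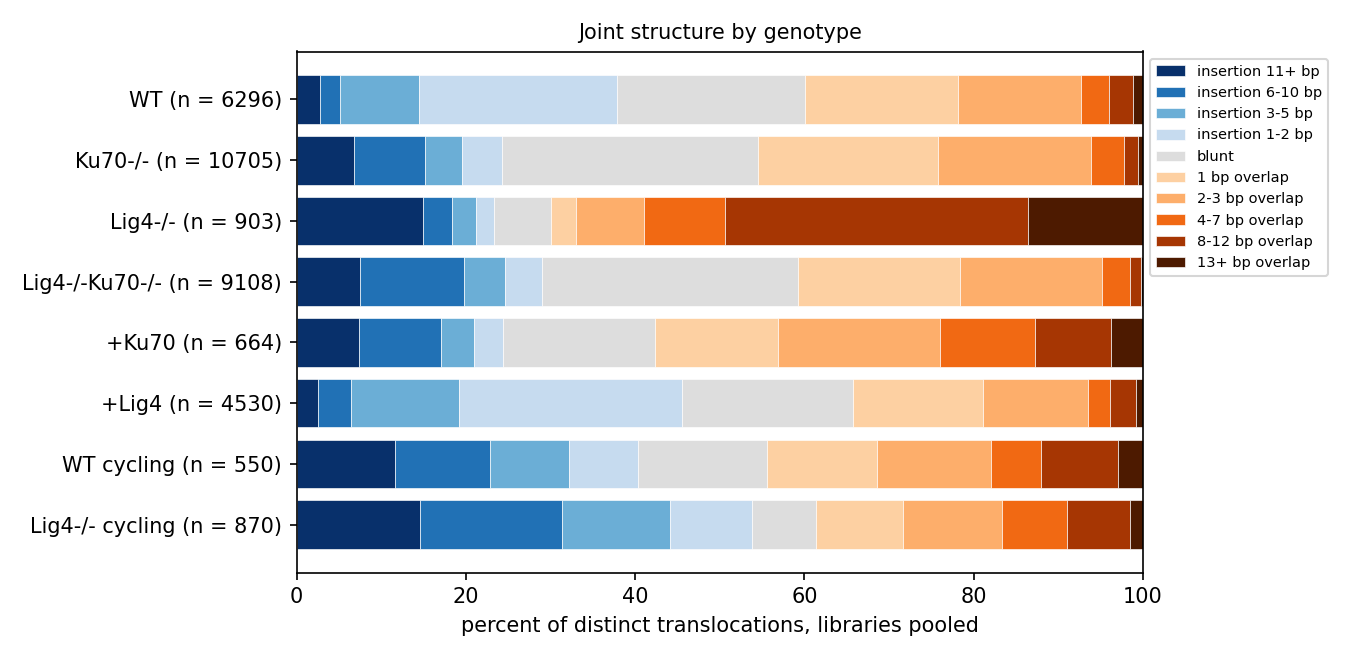
Joint structure of distinct translocations pooled by genotype, as percent of joins in each class of insertion length (blue), blunt joins (grey) and microhomology length (orange to brown). WT and +Lig4 carry many insertions of 1 to 2 bp, Ku70-/- and Lig4-/- Ku70-/- many blunt joins (30.4% and 30.2%), and Lig4-/- G1 cells many overlaps of 8 to 12 bp (35.8%).

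Among G1 cells the bait end was mostly kept whole where both factors were present. It lay within 2 bp of the break in 74.8% of WT and 59.4% of +Lig4 G1 translocations, in 2.76% of Ku70-/-, 6.09% of Lig4-/- and 2.17% of Lig4-/- Ku70-/-, and in 6.33% of +Ku70, which lacks Lig4. The share fell by 70.7 points from WT to Ku70-/- and fell by 67.9 points to Lig4-/-, and rose by 49.8 points from Lig4-/- to +Lig4 (each exact permutation p = 0.005, adjusted p = 0.0104). The pooled median bait end was at the break in WT and 30 bp before it in Ku70-/- and in Lig4-/-. In cycling cells the pooled share was 21.6% in WT and 4.60% in Lig4-/-.

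Joins into CA repeats were the most abundant class outside single-copy sequence. A prey was put in this class when at least 27 of its first 30 bases were C or A and held CA at least 5 times in a row. The class held 7674 of the distinct translocations (22.8%). Prey that began in GT repeats, which are the same repeats read from the other strand, numbered 52 (0.155%). CA prey were found on the plus strand 3855 times and on the minus strand 3819 times, at 7395 different positions, so the join was to the CA strand whichever way the repeat lay. Of 7230 CA prey with at least 50 bases read, 6652 (92.0%) ran on into sequence of mixed letters. In 657020 windows of 30 bases from RefSeq mouse promoters (mm10), 0.0131% met the same rule; no genome was used here for a wider comparison.

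The CA class differed widely between genotypes and between G1 and cycling libraries. It held 3.21%, 2.69% and 2.40% of translocations in WT clone A and 46.6%, 32.7% and 49.8% in Ku70-/- clone A1. In lineage B it held 0.833%, 0.517% and 0.291% in WT and 22.9%, 22.2% and 19.8% in Ku70-/-, with no overlap in either lineage. The rise was 30.7 points (exact permutation p = 0.005, adjusted p = 0.0104), and 21.1 points over the 9 pairs within the run of lineage B. As an abundance, CA joins were 45.8-fold higher in Ku70-/- than in WT and 87.8-fold higher in Lig4-/- Ku70-/- than in Lig4-/- (log2 differences 5.52 and 6.46, each exact permutation p = 0.005, adjusted p = 0.0104). Putting Ku70 back lowered them 38.3-fold (log2 difference -5.26, exact permutation p = 0.005, adjusted p = 0.0104). Lig4-/- cells had fewer CA joins than WT (log2 difference -1.52, exact permutation p = 0.005, adjusted p = 0.0104), though they were a larger share of what those cells joined.

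As a share, the rise of 24.7 points from Lig4-/- to Lig4-/- Ku70-/- (exact permutation p = 0.005, adjusted p = 0.0104) was 11.5 points without joins of 8 bp or more (exact permutation p = 0.195). The share fell by 19.5 points on return of Ku70 (exact permutation p = 0.015, adjusted p = 0.03), a call that ended with the replicate number as a block (exact sign-flip p = 0.0625). The 2 clones were unlike each other after that return: the CA share was 3.45%, 5.56% and 7% in A1_1 and 35.7%, 36.9% and 24.4% in C1. Cycling groups had the highest mean shares, with libraries at 46.9%, 55.6% and 39.9% in WT and 59.3%, 63.6% and 66.8% in Lig4-/-. Cycling WT gave 29.3, 27.4 and 26.1 CA joins per 100000 raw reads against 0.966, 1.29 and 2.90 in the G1 set, and cycling Lig4-/- gave 52.1, 61.8 and 63.4 against 0.966, 0.966 and 0.322. These 2 differences did not overlap, and their exact permutation p of 0.1 is the smallest that 3 against 3 allows.

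**Figure D3:**
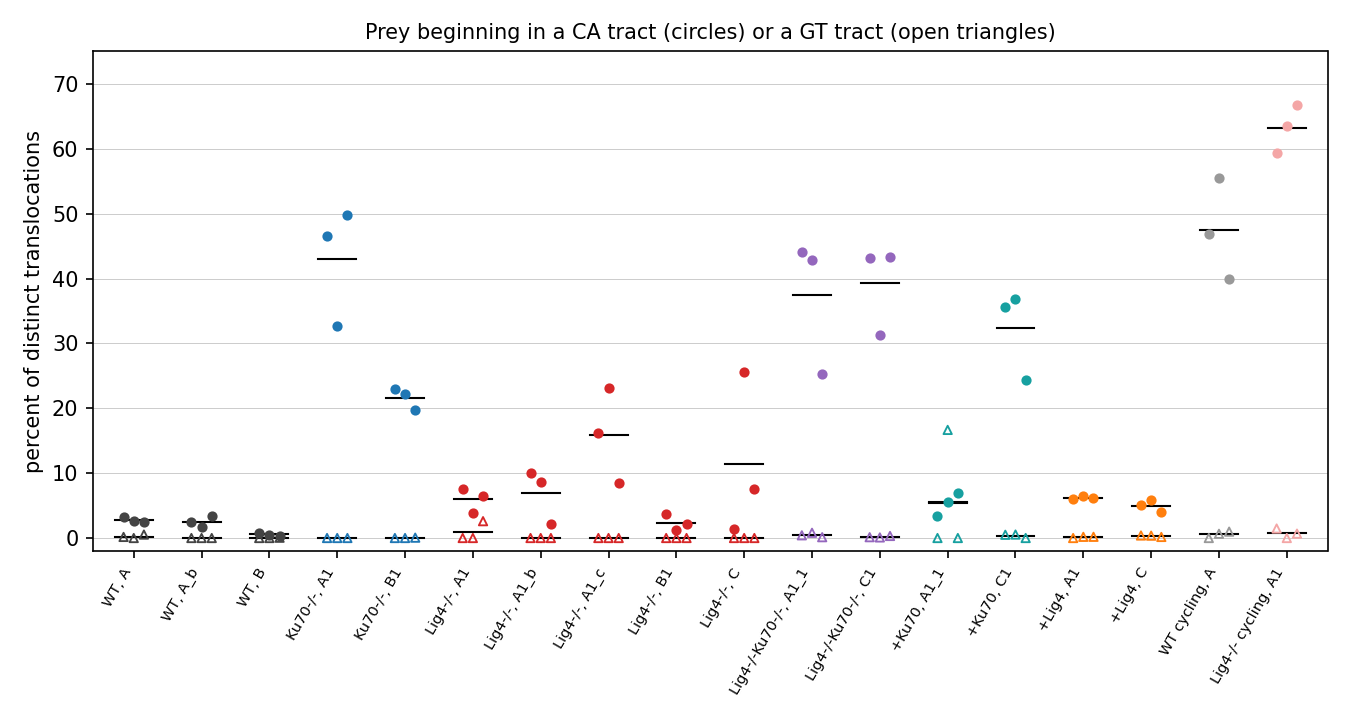
Percent of distinct translocations whose prey begins in a CA tract (filled circles) or in a GT tract (open triangles), per library, with bars at group means. CA-tract prey are 19.8% to 49.8% in Ku70-/- and 39.9% to 66.8% in cycling cells against 0.291% to 3.46% in WT G1 cells, while GT-tract prey stay near 0 apart from 1 small library of +Ku70 clone A1_1.

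Many joins to CA repeats held a copy of Myc sequence from beyond the break. Insertions were present in 4606 of 7674 CA joins and in 22.3% of the joins outside all special classes. Of 3046 CA joins with at least 6 inserted bases, 2271 (74.6%) carried an insertion that is an exact stretch of the 80 bases right of the break. In 1970 (64.7%) the stretch was not repeat alone. In the joins outside the special classes 299 of 864 such insertions (34.6%) matched. Matches made up 1241 of 1475 in Lig4-/- Ku70-/- and 721 of 973 in Ku70-/-, but 3 of 33 in WT and 6 of 43 in Lig4-/- G1 cells. In cycling cells they were 55 of 98 in WT and 154 of 235 in Lig4-/-. The Myc break has its own CA repeat on that side, as shown above, and its part in these joins was not tested.

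The translocations were also set against other long-range joins of the same libraries, using a sign-flip test over libraries. Joins into Igk held almost no CA-tract prey: the mean was 0.0174% in Ku70-/- and 0.512% in Lig4-/- Ku70-/-, against 32.3% and 38.3% of translocations. The difference was positive in 6 of 6 libraries of both genotypes (exact sign-flip p = 0.0312, adjusted p = 0.0496). Joins to chromosome 15 beyond 100 kb of the break were in between, at 13.1% and 19.8% (6 of 6 libraries lower than translocations, exact sign-flip p = 0.0312, adjusted p = 0.0496). Joins of at least 8 bp were 5.01% of WT translocations and 0.235% of WT Igk joins, higher in 8 of 8 libraries (exact sign-flip p = 0.00781, adjusted p = 0.0496). Insertions stood in 43.8% of WT translocations and 59.6% of WT Igk joins, lower in 8 of 8 libraries, and the adjusted value missed the threshold (exact sign-flip p = 0.00781, adjusted p = 0.0703).

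Antigen receptor loci other than Igk drew 721 distinct translocations (2.14%). These loci are cut by the RAG recombinase at V, D and J segments in lymphocytes, and G1 arrest of v-Abl pro-B cells is known to raise RAG activity. The heavy chain locus Igh on chromosome 12 (113256204 to 116009954) had 260, the light chain locus Igl on chromosome 16 (19026858 to 19260844) 242, and the T-cell receptor gamma locus Tcrg on chromosome 13 (19178042 to 19356476) 146. The joint Tcra/Tcrd locus on chromosome 14 (52427967 to 54224198) had 66 and Tcrb on chromosome 6 (40891296 to 41558371) had 7. Per Mb of locus that was 1034 in Igl and 818 in Tcrg, or 80.4 and 63.6 times the genome mean of 12.9 per Mb. It was 7.34 times the mean in Igh, 2.86 times in Tcra/Tcrd and 0.816 times in Tcrb, so Tcrb did not stand above the rest of the genome.

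Within the loci, apart from Tcrb, most joins lay in or near gene segments. Of Igl joins 92.1% lay within 100 bp of an annotated segment, a distance that covers 2.19% of the locus. The share was 91.1% in Tcrg (12.2% covered), 80.3% in Tcra/Tcrd (6.78%) and 182 of 260 in Igh (4.96%), and it was 0 of 7 in Tcrb. The leading segments were Iglv1 with 69 joins, Trgv2 with 68, Iglj3 with 46, Trgj2 with 44, Iglj1 with 42 and Ighd1-1, a diversity segment of Igh, with 37. In Tcra/Tcrd the diversity segment Trdd2 led with 24. RAG leaves a signal end that begins with the heptamer CACAGTG and a coding end that does not; the heptamer opened 6 of 721 receptor prey (0.832%). It opened 4 of 32905 other translocations, 237 of 9587 Igk joins (2.47%) and 0.0103% of the promoter windows. These pooled shares mix genotypes. Of Igk joins it opened 9.39% in WT and 8.45% in +Lig4, but 0.743% in Ku70-/- and 0.458% in Lig4-/- Ku70-/-. Among receptor prey it opened 1 of 379 in Ku70-/-, 2 of 226 in Lig4-/- Ku70-/-, 3 of 80 in +Lig4 and 0 of 24 in WT. Receptor prey and Igk joins were not compared within a genotype by a test.

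Receptor joins were more frequent without Ku70. They were 2.71%, 3.24% and 1.95% of translocations in Ku70-/- clone A1 and 3.99%, 5.80% and 3.07% in B1, against 0.169%, 0.168% and 0.267% in WT clone A and 0.556%, 0.413% and 0.340% in WT clone B. The rise was 3.14 points (exact permutation p = 0.005, adjusted p = 0.0104), and their abundance was 16.7-fold higher (log2 difference 4.07, exact permutation p = 0.005, adjusted p = 0.0104). Near a segment lay 323 of 379 receptor joins in Ku70-/- (85.2%) and 7 of 24 in WT (29.2%). Lig4-/- Ku70-/- cells had 226 among 9108 translocations (2.48%), while Lig4-/- G1 cells had 2 of 903 (0.221%), below the 0.332% that 3 counts would give. The share rose by 1.96 points from Lig4-/- to Lig4-/- Ku70-/- and fell by 1.28 points on return of Ku70 (each exact permutation p = 0.005, adjusted p = 0.0104). With Lig4 returned it was 1.90%, 4.4% and 6% in clone A1 and 1.04%, 0.546% and 0.247% in clone C, a rise of 2.35 points over Lig4-/- (exact permutation p = 0.005, adjusted p = 0.0104). Without replicate 2 of Lig4-/- clone A1 (the set read at 201858 raw reads) and of clone C, which held more junctions than their fellows, that p was 0.05. Cycling WT had 0 of 550, which allows up to 0.545%, and cycling Lig4-/- had 3 of 870.

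The clones favoured different loci. Igh took 147 joins in Ku70-/- clone B1 (1.90% of its translocations) and 19 in A1 (0.637%). Tcra/Tcrd took 16 in clone A1 (0.536%) and 3 in B1 (0.0389%). Igl took 45 of the +Lig4 clone A1 translocations (3.11%) and 2 of clone C (0.0649%). These differences between clones were not tested.

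**Figure D4:**
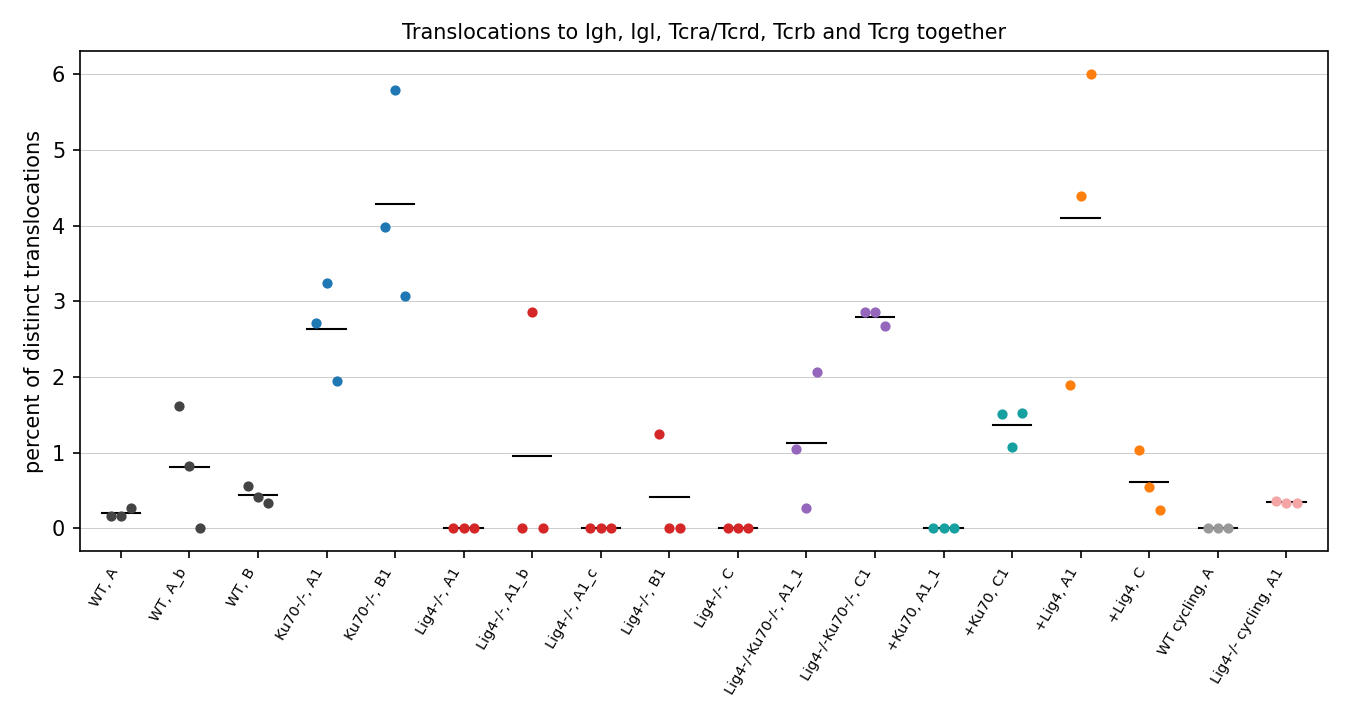
Percent of distinct translocations in the Igh, Igl, Tcra/Tcrd, Tcrb and Tcrg loci together, per library, with bars at group means. Ku70-/- libraries lie at 1.95% to 5.80% and the WT G1 libraries at 0 to 1.61%, with all cycling WT libraries at 0.

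Taken over whole autosomes, the translocations had similar densities, while 1 Mb bins varied more and X and Y lay lower. The 18 autosomes other than 15 carried 12.8 to 15.6 distinct translocations per Mb, and 8.64 to 9.72 per Mb when joins of long overlap, CA tracts, other low-complexity sequence and receptor loci were left out. The number per autosome followed its length (r = 0.98 over 18 autosomes, given as a description). The density of the remaining joins did not follow gene density (r = -0.31, rho = -0.28 over the same autosomes). Of 2628 bins of 1 Mb, 2536 (96.5%) held at least 1 translocation, with a median of 13 and a 5th to 95th percentile of 4 to 22. The fullest bin held 249 and contains Igl, and the 10 fullest bins held 2.84% of all translocations. Chromosomes X and Y carried 6.57 and 1.38 per Mb. Among the joins outside the special classes Y took 59 of 6647 in lineage A (0.888%), 4 of 8947 in lineage B (0.0447%) and 2 of 6729 in lineage C (0.0297%).

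**Figure D5:**
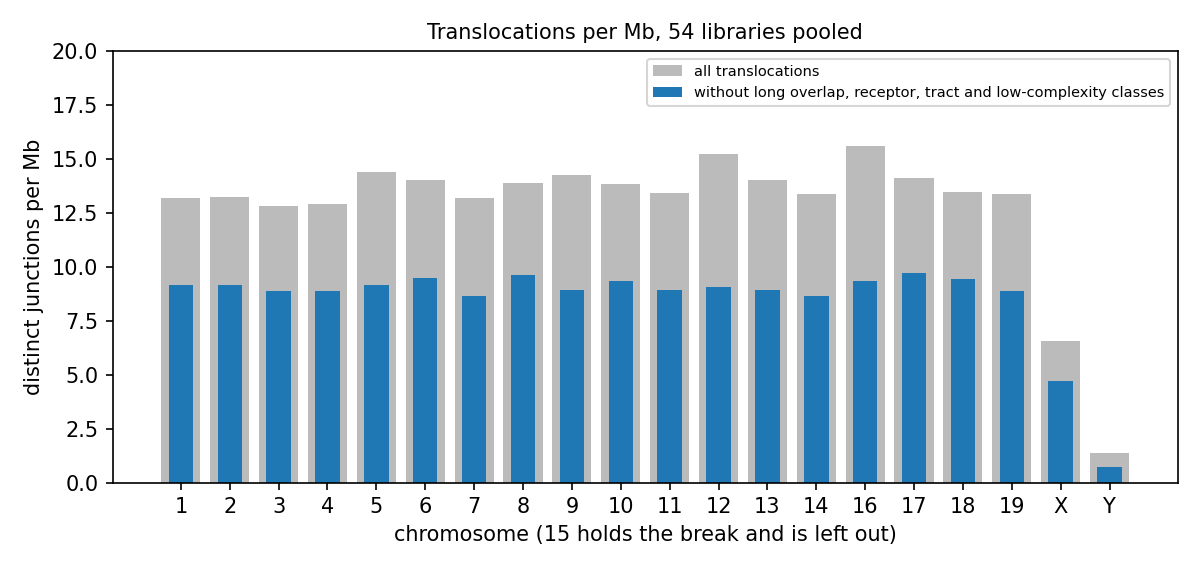
Distinct translocations per Mb of each chromosome, 54 libraries pooled, for all translocations (grey) and for those left after long overlaps, receptor loci, CA tracts and other low-complexity or mitochondrial prey were taken out (blue). Autosomes lie between 12.8 and 15.6 (grey) and between 8.64 and 9.72 (blue), and X and Y lie lower.

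Recurrent sites were defined as clusters of at least 5 distinct translocations, with gaps of at most 1 kb, in at least 3 libraries. There were 101, and they held 1313 translocations (3.90%). Receptor loci gave 21 sites with 580 translocations. Of the rest, 27 were at runs of 1 letter (201), 18 at long microhomology (109), 15 at CA tracts (173), 5 at other low-complexity sequence (40), 2 in mitochondrial DNA (38) and 13 had none of these features (172). The site in most libraries, chromosome 2 from 98666238 to 98667327, had 39 joins in 22 libraries at 39 different positions, 19 of them on the plus strand. With 2 further sites beginning at 98662235 and 98664914 (19 and 18 joins, 13 libraries each) it lies in a stretch of chromosome 2 outside genes. The nearest gene, Gm33780, is 35272 bp from the first site. No repeat annotation was used, so whether reads from repeated sequence gather at this or other recurrent sites was not tested. Zfp536, a zinc-finger gene, had 34 joins in 16 libraries within 7 bp of a CA tract (37504274 to 37504280 of chromosome 7), all on the minus strand. Scn11a, a sodium channel gene, had 33 in 14 libraries within 9 bp (119812445 to 119812453 of chromosome 9), all on the plus strand. Znhit1 had 21 in 10 libraries at a run of 1 letter.

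No close match to 17 or 20 bases of the cut site was found at the recurrent sites. Prey reads within 50 bp of the 101 sites were searched on both strands for the 20 bases of the protospacers at the break. The best match next to an NGG motif had 8 mismatches of 20. For a cut inside the protospacer, where the read holds only the far side, the best had 7 mismatches of 17. The search covers only sequence held in the reads and says nothing of sites outside it.

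Gene bodies were hit slightly above their share of sequence length. They held 50.7% of distinct translocations and cover 45.7% of the annotated extent of the chromosomes, and 5.20% lay within 2 kb of a gene start against 4.18% of the extent. That extent counts X and Y in full, although they carried fewer joins (6.57 and 1.38 per Mb) and Y has few genes (4.28 per Mb). Their part in the excess was not tested. Of 21111 protein-coding genes outside chromosome 15, 6153 were hit, with a mean of 1.42 joins per 100 kb. The 10 genes hit in the most libraries were all long, at 456 to 2271 kb against a median coding gene of 17.1 kb. They include Cntnap2, a neuronal adhesion gene (34 joins in 21 libraries, 1.52 per 100 kb), Fhit, which spans a common fragile site (27 joins, 1.67 per 100 kb), and Macrod2 (30 joins, 1.5 per 100 kb). Among these 10 Zfp536 was the densest with 9.21 per 100 kb, of which 37 of 42 joins were to CA tracts.

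B-lineage genes were looked at as a list of 35. Genes were counted only on chromosomes that held translocations, which leaves out chromosome 15, and 34 of the list were counted (all but Il7r). Of these 15 were hit, by 46 translocations or 1.99 per 100 kb. Among all protein-coding genes outside chromosome 15, 6153 of 21111 were hit, at a mean of 1.42 per 100 kb, and gene length was not matched. Ebf1 and Erg, transcription factor genes of blood and B-cell development, had 9 each, Runx1 had 6, and Pax5 and Bach2 had 5 each. Counting only joins outside the special classes, Ebf1, Runx1, Pax5 and Bach2 had 4 each and Erg had 3. Bcl2, Abl1 and Lig4 had 2, 1 and 0. Gene overlap did not pass between WT and either single deficiency (differences 0.51 points for Ku70-/- and 2.70 for Lig4-/-, exact permutation p = 0.49 and p = 0.16). It fell by 10.7 points from Lig4-/- to Lig4-/- Ku70-/- (adjusted p = 0.0137) and by 11.5 points to +Lig4 (adjusted p = 0.0252), both by exact permutation tests. Without joins of 8 bp or more these were -5.97 and -7.10 points (exact permutation p = 0.285 and p = 0.225).

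The orientation of the prey was balanced, with 49.5% of all distinct translocations on the plus strand. The lowest p of the 9 comparisons was that of Lig4-/- against WT (-4.07 points, exact permutation p = 0.03), and its adjusted p was 0.0675. For 9 libraries of lineage A a second list from the LAM-HTGTS pipeline was deposited, and it held 95.6% to 100% of the distinct translocations of the JoinT-seq list. Of its own translocations, 94.4% to 97.5% were in the JoinT-seq list for WT and Lig4-/-, but 43.5% to 64.6% for Ku70-/-. CA-tract prey made up 52.0% to 73.4% of the Ku70-/- translocations in that second list, so the CA share depends on the pipeline while staying above the 6.03% to 6.84% of WT.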

How the data were processed

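Genomic DNA was amplified from a primer beside the c-Myc break, and the authors deposited junction lists in which each row is a read, given as genome and read coordinates. Per the submitters' processing notes Bowtie2 and mm10 were used; the pipeline's filters are not given in the sources used here. Raw reads per set had been reduced to 201858 to 600000 per library, per the labels. From these lists, overlap was the read position where the bait alignment ends minus that where the prey begins, plus 1; negative values are insertions. Abundance was log2(rows + 0.5) per 100000 raw reads; structure used distinct junctions. Groups were compared with 2-sided exact permutation tests within lineages (smallest p 0.005; 0.1 in 1 lineage), and Benjamini-Hochberg adjustment covered 63 planned tests and, apart, 54 on measures added after the data were seen (CA tracts, receptor loci, bait ends and their abundances). "Rose" and "fell" need an adjusted p under 0.05. Same-numbered libraries shared sequencing runs in some sets, but the labels give no pairing and their deviations correlated in both directions across the abundance comparisons (r from -0.59 to 0.97), so the main tests are unpaired. Members and lists were chosen with earlier results of these data known. Sites were named by rank of libraries, genes likewise; segments were ranked by joins. Alternatives are given at the end. Gene and promoter annotation came from RefSeq. Analyses used Python 3.11.15, pandas 2.3.3, NumPy 2.4.6 and SciPy 1.17.1, and the site search was tested on simulated data.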

Additional observations from a re-analysis of the deposited data

Results flagged for a closer look

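A total of 5 differences between groups were tested as interactions and passed after adjustment over 49 tests (each exact permutation p = 0.005, the smallest possible, adjusted p = 0.049). The effect of cycling on the translocation share was -40.6 points in Lig4-/- and 0.49 points in WT, a difference of -41.1 points. With rows within 100 kb of the break out of the denominator, the effect in Lig4-/- was 2.81 points. The effect of cycling on the share with at least 2 bp of microhomology was -44.5 points in Lig4-/- and 12.4 points in WT, a difference of -56.9 points. The effect of cycling on insertions was 33.2 points in Lig4-/- and -6.44 points in WT, a difference of 39.6 points. No run held both arms of either cycling comparison, so in these interactions the effect of cycling and that of the run cannot be told apart. For insertions the Lig4-/- minus WT effect differed by -53.2 points between lineages A and B. The Ku70-/- minus Lig4-/- effect on insertions was 20.8 points in lineage A and -20.7 points in lineage B, a difference of 41.5 points; one-letter prey were far more frequent in the Lig4-/- libraries of lineage B, and lineage B alone was read on a Nextseq, so lineage and instrument cannot be told apart.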

How the results depend on the processing

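With CA-tract prey left out, and with CA-tract, low-complexity and long-overlap joins left out together, the Ku70-/- minus WT abundance was 0.35 and 0.31 (log2) and no longer passed. Over distinct junctions the share differences were -13.8 (Ku70-/- minus WT, turned), -14.2 (Lig4-/- Ku70-/- minus Lig4-/-, not passed), -1.33 (+Ku70, turned), -9.98 (+Lig4, not passed) and -9.83 (cycling WT, turned). With rows within 100 kb of the break out of the denominator they were -6.20 (Ku70-/- minus WT, turned), 4.06 (+Ku70, not passed) and 2.81 (cycling Lig4-/-, turned). The cycling WT share difference turned to -0.12 without CA-tract prey and -0.24 without all 3 classes, where Lig4-/- Ku70-/- minus Lig4-/- was -11.1 and not passed. For microhomology, Ku70-/- minus WT passed at 5.04 (no long overlaps), 7.17 (1 bp), 6.29 (no CA tract) and 8.95 (without all 3) and turned at 3 bp (-1.0). Without long overlaps Lig4-/- minus WT (15.3) and Ku70-/- minus Lig4-/- (-10.3) no longer passed. Lig4-/- minus WT in cycling cells turned to 10.6 without CA-tract prey and 16 without all 3. The LAM-HTGTS lists turned Ku70-/- minus WT in lineage A to -26.5 (share) and -3.73 (microhomology). The cause of these changes was not tested.

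Insertions turned without long overlaps for Lig4-/- minus WT (6.56), Ku70-/- minus Lig4-/- (-23.8) and Lig4-/- Ku70-/- minus Lig4-/- (-9.90). Without CA-tract prey they turned for Ku70-/- minus Lig4-/- (-10.3), +Ku70 (1.55) and Lig4-/- minus WT in cycling cells (-0.18). Without all 3 classes they turned to -1.21 (Ku70-/- minus Lig4-/-) and -2.70 (Lig4-/- minus WT, cycling). Without CA-tract prey, the long-overlap share of Lig4-/- minus WT in cycling cells turned to 1.78 and the bait-end share of cycling minus G1 Lig4-/- to 4.10. The log2 abundance of long-overlap joins in Lig4-/- Ku70-/- minus Lig4-/- turned to -0.0078 without recurrent sites and -0.32 without the 2 Lig4-/- libraries of high junction count.

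With 1 library left out at a time, values ranged from 0.76 to 1.12 (abundance, Ku70-/- minus WT), -0.46 to 0.071 (abundance, cycling minus G1 WT), 8.13 to 13.6 (share, +Ku70 minus Lig4-/- Ku70-/-), -1.68 to 2.38 (insertions, Ku70-/- minus Lig4-/-), -5.40 to 0.31 (bait end, cycling minus G1 Lig4-/-), -0.21 to 0.24 (log2 abundance of long-overlap joins, Ku70-/- minus WT) and -0.28 to 0.26 (the same, Lig4-/- Ku70-/- minus Lig4-/-).

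With the replicate number as a block (exact sign-flip test) effects are the same and the planned G1 calls kept p = 0.0312, for example 0.91 for the Ku70-/- minus WT abundance; the pairing ended the CA-share call of +Ku70 (-19.5, p = 0.0625) and that of plus orientation in Lig4-/- minus WT (-4.07, p = 0.0938). Comparisons in cycling cells cannot pass in either test. Depth limits the Lig4-/- and +Ku70 A1_1 libraries most: the smallest had 18 translocations.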
